A study of Mus musculus with 24 samples.

Results

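The response of the liver to a high-fat diet (HFD) was compared between wild-type (WT) mice and mice lacking Ogg1 (Ogg1-/-), as the difference (HFD minus chow in Ogg1-/-) minus (HFD minus chow in WT) for each probe set. All 24 arrays of the series entered the comparison, 6 livers in each of 4 groups defined by genotype and diet, so that the comparison used every sample of the 24 in the series. The mice were males on a C57BL6 background, housed singly and fed chow or the HFD freely for 10 weeks. According to the sample labels, feeding began at 10 weeks of age, whereas the study's methods give an older starting age. Both alleles of Ogg1 were lost in every cell of the Ogg1-/- mice, which came from matings of heterozygotes, and each array held the RNA of a single liver. In whole liver, a lower level cannot be told apart from fewer cells of the type that makes the RNA.

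OGG1 is a DNA glycosylase of the base excision repair pathway that removes 8-oxoguanine, an oxidized form of guanine, from nuclear and mitochondrial DNA. The liver answers a HFD by storing triglyceride in lipid droplets, by shifting the enzymes that make and burn fatty acids, by lowering sterol synthesis and by changing cytochrome P450 genes, several of which differ between male and female liver. Many of these genes also follow the circadian clock, in which ARNTL (BMAL1) with CLOCK drives Per, Dbp and Rev-erb genes that in turn oppose it.

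The labels were checked against Ogg1 itself. Its probe set lay between 6.26 and 6.57 on the log2 scale in all WT livers and between 5.70 and 6.03 in all Ogg1-/- livers, with no overlap. Whether its probes fall within the deletion is not stated in the sources used, so the remaining signal in Ogg1-/- livers is not a measure of the deletion. The diet response of Ogg1 was -0.01 in WT and -0.06 in Ogg1-/- livers on the log2 scale, and neither passed the test. The mean of 5 hepatocyte markers lay between 13.5 and 13.7 in every liver.

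Some arrays stood apart. Replicate 1 of the chow-fed Ogg1-/- livers (liver 1) scored 80.9 on the main axis of variation among the chow-fed livers, against -42.1 to 7.74 in the other 5 of its group and 18.5 to 54.8 in the HFD-fed Ogg1-/- livers. Liver 1 was itself used to set this axis and made up 59.2% of the squared deviations of the chow-fed livers along it. Its high score is therefore partly built into the axis. The descriptions of all 6 chow-fed WT arrays and of 1 HFD-fed WT array (replicate 5) end in the letters fr, and those of the other 17 end in f. No source used here explains these letters, and among WT livers they nearly coincide with the diet. Where leaving out liver 1 changed whether the difference of a named gene passed, this is stated with its values. Losses with this suffix in the fit are stated for the differences and for the diet responses of the strongest genes called in both genotypes. For the diet responses of other named genes, and for the medians of gene lists other than the male-biased one, the result with the suffix is not given. The lack of a statement there does not mean that a call or a median held.

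The 2 diet responses ran the same way for most genes that changed. Among 35556 probe sets, 137 (0.385%) were called in WT livers and 1107 (3.11%) in Ogg1-/- livers, a call meaning a fold of at least 1.5 and an adjusted p under 0.05 from limma. A total of 90 probe sets were called in both genotypes, 56 higher and 34 lower on the HFD in each, and 0 were called in opposite directions. These 90 made up 65.7% of the probe sets called in WT and 8.13% of those called in Ogg1-/- livers. The difference between the responses was called for 1 probe set (0.00281%), that of Tmeff2, and 2447 probe sets (6.88%) had an unadjusted p under 0.05 for it. The standard error of the difference was larger than that of either response, with medians of 0.147 and 0.104 on the log2 scale.

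Each of 19938 genes was then represented by its brightest probe set. Of the 103 genes (0.517%) called in WT livers, 100 had the same sign in Ogg1-/- livers and 3 the opposite sign. Of the 685 genes (3.44%) called in Ogg1-/- livers, 675 had the same sign in WT and 10 the opposite sign. Over all genes the signs matched for 70.9%, and the Pearson correlation of the responses across genes was 0.722 (Spearman 0.564). The responses share no arrays, but genes are not independent replicates, and the correlation is given as a description.

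The sizes of the responses depended on the genotype in which the genes were selected. Genes called in Ogg1-/- livers had a median size of 0.74 there and 0.37 in the same direction in WT, and 42 of the 685 had the larger response in WT. Genes called in WT had a median size of 0.89 there and 0.91 in Ogg1-/- livers, and 41 of the 103 had the larger response in Ogg1-/- livers. The values in the genotype that chose the genes are selected ones. Among the 76 genes called in both, 41 had the larger response in Ogg1-/- and 35 in WT livers. The responses of 53 of these 76 lay within 0.3 of each other on the log2 scale, and 6 differed at an unadjusted p under 0.05, namely Cyp2b9, Cyp2b10, Cyp2b13, Inhbe, Sema5b and Wee1, of which Inhbe and Sema5b are named only because their values placed them here.

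**Figure D1:**
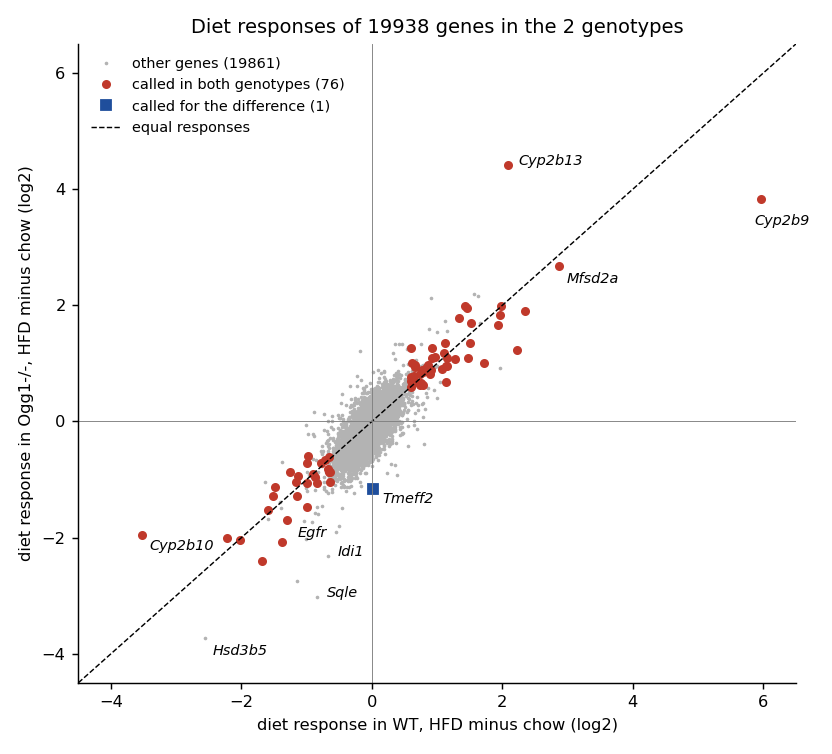
Diet responses of 19938 genes, HFD minus chow on the log2 scale, in WT livers (horizontal axis) and Ogg1-/- livers (vertical axis), with 6 livers per group. The 76 genes called in both genotypes (red) lie in the quadrants where the signs match, while Tmeff2 (blue), the gene called for the difference, lies at 0.02 in WT and -1.16 in Ogg1-/- livers.

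Genes that rose in both genotypes included lipid carriers and acute-phase genes. Mfsd2a, a transporter of lysophospholipids, ranged from 7.18 through a median of 9.12 to 9.65 on the log2 scale in chow-fed WT livers and from 10.52 through 12.11 to 12.40 in HFD-fed ones. Among Ogg1-/- livers Mfsd2a ranged from 8.77 through 10.19 to 10.64 on chow and from 12.02 through 12.62 to 12.90 on the HFD. The diets did not overlap in either genotype, and the responses of 2.86 and 2.68 on the log2 scale differed by -0.18 (standard error 0.55, adjusted p = 0.97 from limma). Fabp2, the intestinal fatty acid binding protein, was also higher on the HFD in all livers of both genotypes. Its lowest, median and highest values were 9.50, 9.96 and 10.004 in chow-fed and 11.01, 11.33 and 11.80 in HFD-fed WT livers. In Ogg1-/- livers they were 9.61, 9.74 and 9.95 on chow and 11.01, 11.46 and 11.75 on the HFD. The diets were again separate in both genotypes, with rises of 1.52 and 1.69 and a difference of 0.17 (standard error 0.19).

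Apoa4, an apolipoprotein of triglyceride-rich particles, rose by 2.35 in WT and by 1.90 in Ogg1-/- livers. G0s2, an inhibitor of the lipase ATGL, rose by 1.33 and 1.78, and Acnat2, an acyltransferase of peroxisomes, rose 2.69-fold and 3.99-fold. Bdh1, which interconverts the ketone bodies, rose by 0.75 and 0.66. None of these 4 genes had overlapping diets in either genotype, and their differences between genotypes had unadjusted p values from 0.0913 to 0.371 (limma). Since they were named for the size of their responses, separate diets are not independent of the choice. The acute-phase genes Lcn2 and Saa2 rose by 1.93 and 1.46 in WT and by 1.66 and 1.95 in Ogg1-/- livers, with overlapping diets for Lcn2 in Ogg1-/- livers. Stap1, an adaptor protein, rose by 1.96 and 1.83. By the methods' t-test, which takes each pair of groups alone, Saa2 and Acnat2 did not pass in WT (adjusted p = 0.0535 for Acnat2), and Lcn2 did not pass in WT (0.0693) or in Ogg1-/- livers (0.0672). With the suffix of the descriptions as a term, the rise of Saa2 in WT did not pass either (adjusted p = 0.0704 from limma).

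Genes that fell in both genotypes included enzymes of drug, steroid and fatty acid oxidation. Cyp4a12a and Cyp4a12b, fatty acid hydroxylases with higher expression in males, had responses of -1.38 and -1.69 in WT and of -2.07 and -2.40 in Ogg1-/- livers, and all 4 passed. The chow-fed WT livers lay between 12.48 and 12.91 for Cyp4a12a, with a median of 12.78, and the HFD-fed ones between 10.31 and 11.85, with a median of 11.54. Among Ogg1-/- livers Cyp4a12a ranged from 11.07 through 12.64 to 12.96 on chow and from 9.55 through 10.28 to 11.32 on the HFD. The lowest of these chow values was that of liver 1, the next being 12.22. The highest HFD value was that of replicate 3, the next being 10.59. The overlap of diets for Cyp4a12a in Ogg1-/- livers thus lay between these 2 livers. Egfr, the epidermal growth factor receptor, fell by 1.30 in WT and by 1.70 in Ogg1-/- livers. Its WT call was lost without chow replicate 6 or HFD replicate 5 or 6 (highest adjusted p = 0.056 from limma), with the suffix as a term and by the methods' t-test (0.0618), and that of Cyp4a12a was lost without chow replicate 4 or 6 or HFD replicate 5 (0.0645).

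Adgrf1, an adhesion G protein-coupled receptor, fell by 2.03 in WT and by 2.04 in Ogg1-/- livers, a difference of -0.02 (standard error 0.38). Cyp2c55 fell by 2.23 and 2.01, Cyp3a44 by 1.59 and 1.53, the carboxylesterase Ces2a by 1.49 and 1.13, and the dicarboxylate transporter Slc13a2 by 1.51 and 1.28. These 5 genes had no overlap between diets in either genotype. They were named for strong responses in both genotypes, so the separation follows in part from that choice. The HFD-fed WT array that shares the suffix fr with the chow-fed ones, replicate 5, differed from the mean of the chow-fed WT livers by -2.90 for Adgrf1, -2.03 for Cyp2c55 and -1.53 for Ces2a on the log2 scale. With the suffix as a term, the responses of Cyp2c55 and Cyp3a44 in WT did not pass (adjusted p = 0.135 and 0.238 from limma).

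**Figure D2:**
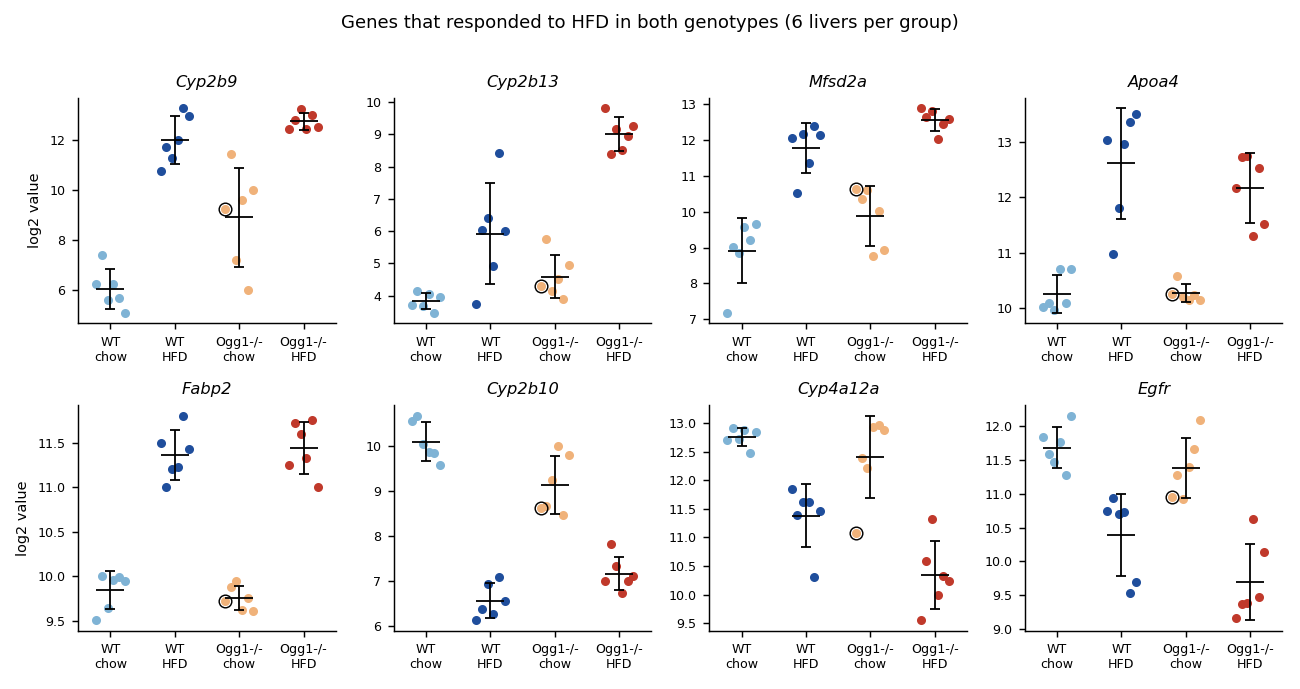
Log2 values of 8 genes that were called in both genotypes, 1 point per liver, with the mean (dash) and standard deviation (bars) of the 6 livers in each group; liver 1 of the chow-fed Ogg1-/- group is circled. Cyp2b9, Cyp2b13, Mfsd2a, Apoa4 and Fabp2 were higher on the HFD in both genotypes, and Cyp2b10, Cyp4a12a and Egfr were lower.

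The CYP2B enzymes oxidize drugs and steroids, and in mice Cyp2b9 and Cyp2b13 are higher in female liver, while Cyp2b10 is the gene induced through the receptor CAR. All 3 were called in both genotypes, in the same directions (by the methods' t-test Cyp2b9 did not pass in Ogg1-/- livers, adjusted p = 0.051, nor Cyp2b13 in WT, 0.16). All 3 were among the 6 shared genes whose responses differed at an unadjusted p under 0.05. Cyp2b9 ranged from 5.07 through 5.95 to 7.40 in chow-fed and from 10.76 through 11.87 to 13.28 in HFD-fed WT livers. In Ogg1-/- livers it ranged from 5.98 through 9.42 to 11.45 on chow and from 12.44 through 12.68 to 13.24 on the HFD. The genotypes overlapped on each diet, and the chow-fed Ogg1-/- group was wider, with a standard deviation of 1.98 against 0.80 in WT. The responses were 5.97 in WT and 3.84 in Ogg1-/- livers (difference -2.14, standard error 0.90, unadjusted p = 0.0259, adjusted p = 0.66 from limma).

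Cyp2b13 had the larger response in Ogg1-/- livers. It ranged from 3.46 through 3.83 to 4.15 in chow-fed and from 3.76 through 6.02 to 8.43 in HFD-fed WT livers, which overlapped. In Ogg1-/- livers it ranged from 3.88 through 4.41 to 5.75 on chow and from 8.40 through 9.06 to 9.81 on the HFD, with no overlap. The rises of 2.09 and 4.42 differed by 2.33 (standard error 0.68, unadjusted p = 0.00231, adjusted p = 0.52), but with the suffix of the descriptions as a term the difference was -0.17, of the opposite sign. The rise in WT did not pass without any 1 of 10 of the 12 WT livers (highest adjusted p = 0.078 from limma) or with the replicate number as a block (0.062). Cyp2b10 fell by 3.53 in WT and by 1.96 in Ogg1-/- livers, and these differed by 1.56 (standard error 0.36, unadjusted p = 0.000243, adjusted p = 0.365).

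Chow-fed WT livers lay between 9.57 and 10.67 for Cyp2b10, with a median of 9.95, and HFD-fed ones between 6.12 and 7.09, with a median of 6.46. Chow-fed Ogg1-/- livers lay between 8.46 and 9.98, with a median of 8.95, and HFD-fed ones between 6.73 and 7.81, with a median of 7.05. The diets were separate in both genotypes, and each Ogg1-/- group overlapped the WT group on the same diet. Without liver 1 the difference was 1.46 and passed (adjusted p = 0.0452 from limma).

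The 250 bases before the RefSeq starts of these genes (GRCm38.p6, plus strand) are shown because the 3 genes are close relatives and the windows of Cyp2b9 and Cyp2b13 are nearly identical. The windows are at chr7:26173159-26173408 for Cyp2b9, chr7:26061245-26061494 for Cyp2b13 and chr7:25897408-25897657 for Cyp2b10. Capitals mark bases of Cyp2b13 and Cyp2b10 that differ from, or are inserted relative to, Cyp2b9 in a global alignment.
Cyp2b9: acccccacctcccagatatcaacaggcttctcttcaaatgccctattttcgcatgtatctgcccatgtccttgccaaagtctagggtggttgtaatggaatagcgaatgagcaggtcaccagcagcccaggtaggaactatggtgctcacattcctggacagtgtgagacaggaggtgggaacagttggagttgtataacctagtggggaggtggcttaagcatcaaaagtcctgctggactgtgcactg
Cyp2b13: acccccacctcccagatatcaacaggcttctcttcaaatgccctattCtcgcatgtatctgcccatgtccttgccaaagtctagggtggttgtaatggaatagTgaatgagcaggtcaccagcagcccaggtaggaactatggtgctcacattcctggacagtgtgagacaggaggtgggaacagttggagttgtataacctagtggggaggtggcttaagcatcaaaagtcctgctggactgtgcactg
Cyp2b10: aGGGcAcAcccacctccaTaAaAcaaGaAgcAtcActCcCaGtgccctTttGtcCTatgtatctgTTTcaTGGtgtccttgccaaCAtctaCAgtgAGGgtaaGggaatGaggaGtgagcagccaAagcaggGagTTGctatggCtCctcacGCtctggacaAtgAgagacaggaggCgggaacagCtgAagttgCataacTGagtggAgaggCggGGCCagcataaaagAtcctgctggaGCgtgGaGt
The Cyp2b13 window differs from that of Cyp2b9 at 2 of 250 bases, whereas that of Cyp2b10 matches it at 187 of 262 aligned positions (71.4%). Whether transcripts of such close relatives share probes on the array was not tested, so the values of Cyp2b9 and Cyp2b13 are uncertain to that extent.

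Tmeff2, which encodes a transmembrane protein with EGF-like and follistatin-like domains, was the only gene called for the difference between the diet responses. Its values were 4.78, 4.92 and 5.11 (lowest, median and highest, log2) in chow-fed and 4.81, 4.90 and 5.26 in HFD-fed WT livers. In Ogg1-/- livers they were 6.005, 6.22 and 6.53 on chow and 4.85, 5.04 and 5.39 on the HFD. The chow-fed Ogg1-/- livers thus lay above all other livers, while the 3 remaining groups overlapped. The response was 0.02 in WT and -1.16 in Ogg1-/- livers, and the difference was -1.17 (standard error 0.14, adjusted p = 0.000415 from limma). It passed with any 1 liver left out (adjusted p from 0.00011 to 0.00151) and without liver 1 it was -1.19. With the suffix of the descriptions as a term, which leaves a single HFD-fed WT array in the WT response, it was -1.03 and did not pass (adjusted p = 0.247). The mean level of the probe set, 5.30, is below the median of all probe sets, 5.93.

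Of the 10 bright genes with the smallest p for a difference in the positive direction, meaning a higher HFD-to-chow ratio in Ogg1-/- livers, none passed after adjustment over all probe sets with all livers in the fit. In this direction 538 genes (2.7%) had an unadjusted p under 0.05. Sardh, a mitochondrial sarcosine dehydrogenase, ranged from 12.21 through 12.39 to 12.45 in chow-fed and from 12.17 through 12.36 to 12.51 in HFD-fed WT livers. Among Ogg1-/- livers Sardh ranged from 11.82 through 11.98 to 12.21 on chow and from 12.40 through 12.46 to 12.66 on the HFD. Only in the Ogg1-/- livers were the diets separate, and the difference was 0.53 (standard error 0.10, adjusted p = 0.195 from limma).

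Zfp36l1, an mRNA-decay factor, had responses of -0.11 in WT and 0.58 in Ogg1-/- livers (difference 0.69, adjusted p = 0.195). Mmaa, which serves the cobalamin-dependent methylmalonyl-CoA mutase, had a difference of 0.57, and the transporter gene Slc45a3 one of 0.88. The differences were 0.62 for the mitochondrial chaperonin Hspe1, 0.47 for the sulfite oxidase Suox and 0.48 for Adssl1, an enzyme of purine synthesis. Nat8 behaved otherwise, since it fell by 1.01 in WT livers and had a response of -0.06 in Ogg1-/- livers (difference 0.95, adjusted p = 0.365). Its HFD-fed WT livers, from 8.57 through 8.74 to 9.30, lay below the chow-fed ones, from 9.68 through 9.84 to 9.97, while the 2 Ogg1-/- groups overlapped, with medians of 9.75 and 9.62. Without liver 1 the differences of these 8 genes, Sardh included, all passed (adjusted p from 0.0211 for Hspe1 to 0.0324 for Suox, limma), and that of Slc45a3 also passed without HFD-fed Ogg1-/- replicate 5 (0.0227).

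In the negative direction 673 genes (3.38%) had an unadjusted p under 0.05. Peg10, an imprinted gene of retrotransposon origin, ranged from 5.67 through 5.84 to 6.01 in chow-fed and from 5.70 through 6.13 to 6.21 in HFD-fed WT livers. Chow-fed Ogg1-/- livers ranged from 5.87 through 6.18 to 6.56 for Peg10 and HFD-fed ones from 5.51 through 5.64 to 5.95. The diets overlapped in both genotypes, and the difference was -0.77 (standard error 0.15, adjusted p = 0.195 from limma). Others were Gmfb (-0.54), the microRNA-processing gene Dgcr8 (-0.50), Ifrd1 (-0.48), Tbcel (-0.47), Pik3ap1 (-0.51) and Nxpe2 (-0.98), with adjusted p values from 0.365 to 0.474. In 5 of these 6 genes the response in Ogg1-/- livers passed the test and that in WT did not, which does not show a difference, and for Nxpe2 neither passed. Without liver 1 the differences of all 6 and of Peg10 passed (adjusted p from 0.0211 for Pik3ap1 and Nxpe2 to 0.0386 for Tbcel, limma).

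Departures in which the signs themselves were opposite were few. Slc20a1, a phosphate transporter, rose by 0.70 in WT livers and had a response of -0.13 in Ogg1-/- livers (difference -0.83, adjusted p = 0.405 from limma). Its chow-fed WT livers ranged from 7.98 through 8.13 to 8.55 and the HFD-fed ones from 8.46 through 8.97 to 9.21. The Ogg1-/- livers ranged from 8.48 through 8.67 to 9.24 on chow and from 8.38 through 8.59 to 9.08 on the HFD. The diets overlapped in both genotypes, and the chow-fed Ogg1-/- livers overlapped both WT groups. The choline kinase Chka and the N-acetyltransferase Nat8f5 fell by 0.61 and 0.89 in WT and had responses of 0.01 and 0.16 in Ogg1-/- livers. For Chka the chow-fed Ogg1-/- livers, from 7.74 to 8.24, already lay below the chow-fed WT ones, from 8.59 to 9.35.

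Of the genes called in Ogg1-/- livers with the opposite sign in WT, Bhlhe41 and Serpina12 fell by 0.92 and 0.73 there, and Aldh1b1 and Slc45a3 rose by 0.77 and 0.71. Their responses in WT were 0.39, 0.29, -0.23 and -0.17, and none of these passed. Serpina12 encodes the adipokine vaspin, and Aldh1b1 a mitochondrial aldehyde dehydrogenase. The differences were -1.03 for Serpina12 and 1.005 for Aldh1b1, with adjusted p values of 0.482 and 0.365 from limma. Without liver 1 the differences of Slc20a1, Bhlhe41 and Aldh1b1 passed (adjusted p = 0.0323, 0.0418 and 0.0425), and those of Serpina12, Chka and Nat8f5 did not.

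**Figure D3:**
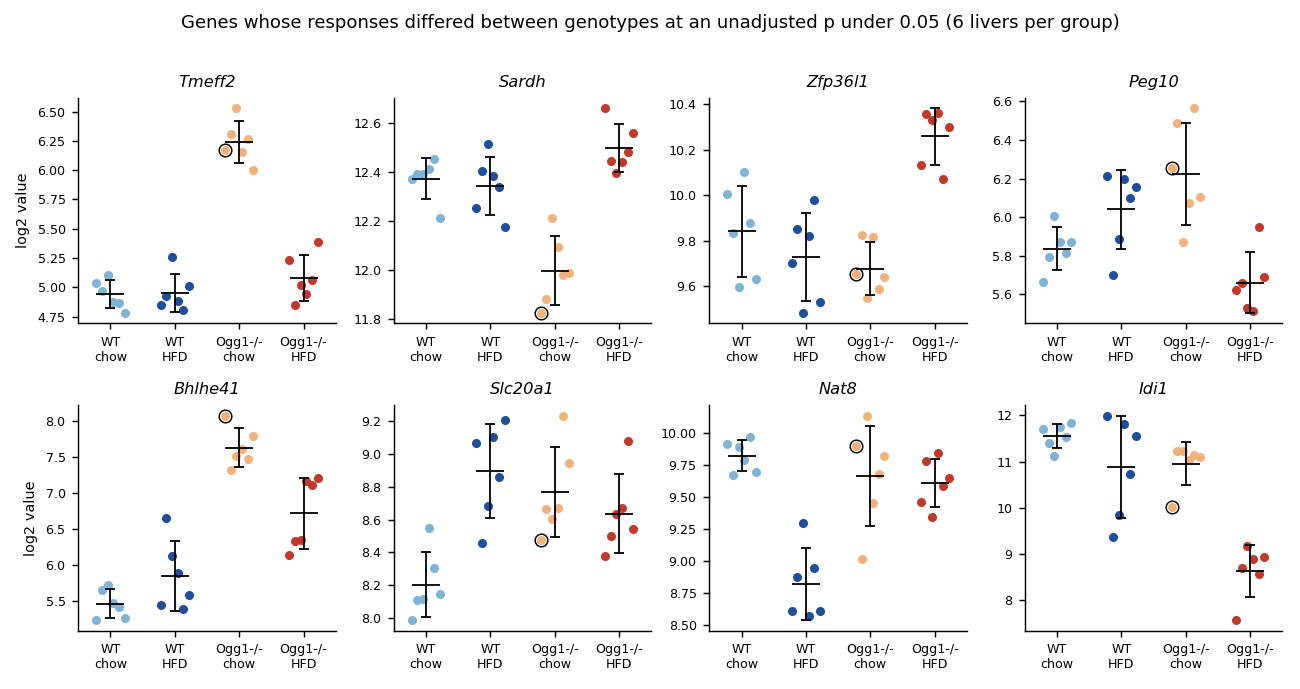
Log2 values of 8 genes whose responses differed between genotypes at an unadjusted p under 0.05, 1 point per liver, with the mean (dash) and standard deviation (bars) of 6 livers per group and liver 1 circled. Tmeff2 was called for the difference; the diets overlapped in both genotypes for Peg10 and Slc20a1, were separate in Ogg1-/- livers alone for Sardh, Zfp36l1, Bhlhe41 and Idi1, and in WT livers alone for Nat8.

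Clock genes responded to diet in both genotypes, and their chow levels already differed. Of 13 genes that peak opposite to Arntl, 9 rose and 0 fell in WT livers, and 6 rose and 3 fell in Ogg1-/- livers, against 0.742% of all genes that rose and 0.371% that fell in WT and 5.59% and 5.87% in Ogg1-/- livers. The median response was 0.63 in WT and 0.41 in Ogg1-/- livers, and the median difference was -0.36, against 0.04, 0.04 and -0.01 over all genes. Ciart, a repressor of CLOCK and ARNTL, ranged from 5.83 through 6.26 to 7.16 in chow-fed and from 7.21 through 7.89 to 8.78 in HFD-fed WT livers. Ogg1-/- livers ranged from 7.87 through 9.30 to 9.60 on chow and from 9.96 through 10.47 to 11.06 on the HFD for Ciart. Its rises of 1.51 and 1.35 differed by -0.15 (standard error 0.44), each within its own genotype without overlap.

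Wee1, the kinase that restrains mitotic entry and a clock target, rose by 1.13 in WT and by 0.68 in Ogg1-/- livers, a difference of -0.45 (unadjusted p = 0.017, adjusted p = 0.626). Dbp, a clock output factor, rose 1.995-fold in WT and had a response of 0.41 on the log2 scale in Ogg1-/- livers. Usp2 rose by 1.04 in WT and had a response of 0.68 in Ogg1-/- livers. Bhlhe41, a clock repressor, was 1 of the 3 genes opposite to Arntl that fell in Ogg1-/- livers. In 12 of those 13 genes the signs matched between genotypes, 2 of them negative in both, and Bhlhe41 was the exception. Its values were 5.22, 5.44 and 5.72 in chow-fed and 5.39, 5.73 and 6.65 in HFD-fed WT livers, and 7.32, 7.56 and 8.08 in chow-fed and 6.14, 6.72 and 7.21 in HFD-fed Ogg1-/- livers. Both Ogg1-/- groups thus had higher medians than the WT groups, and only the Ogg1-/- livers separated by diet, downward (difference -1.30, standard error 0.30, adjusted p = 0.365).

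Of 4 measured genes in the phase of Arntl, 3 had an unadjusted p under 0.05 for a positive difference, against 2.7% of all genes. Arntl itself fell by 0.98 in WT and had a response of -0.21 in Ogg1-/- livers (difference 0.77, standard error 0.25, adjusted p = 0.521 from limma). Chow-fed WT livers lay between 7.36 and 8.23 for Arntl, with a median of 7.73, and HFD-fed ones between 6.03 and 7.34, with a median of 6.84. Ogg1-/- livers lay between 5.79 and 6.46 on chow and between 5.82 and 6.13 on the HFD, with medians of 6.23 and 6.02, below all chow-fed WT livers. Clock fell by 1.19 in Ogg1-/- livers and had a response of -0.87 in WT. No source used here states when in the day livers were collected, and the part of that hour in these differences was not tested.

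The difference between the diet responses was called for Tmeff2 and did not pass for Bhlhe41 or Ciart with all livers in the fit. The windows of Ciart, Bhlhe41 and Tmeff2 each hold the E-box CACGTG, the palindromic site read by CLOCK and ARNTL and by BHLHE41. They are the 250 bases before the RefSeq starts (GRCm38.p6), at chr3:95882229-95882478 on the minus strand for Ciart, chr6:145865421-145865670 on the minus strand for Bhlhe41 and chr1:50927273-50927522 on the plus strand for Tmeff2, with each E-box in capitals.
Ciart: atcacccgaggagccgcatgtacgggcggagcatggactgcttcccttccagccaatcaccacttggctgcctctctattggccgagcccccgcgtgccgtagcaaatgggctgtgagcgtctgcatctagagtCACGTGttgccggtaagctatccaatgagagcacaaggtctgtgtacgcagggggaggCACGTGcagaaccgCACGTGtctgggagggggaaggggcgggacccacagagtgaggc
Bhlhe41: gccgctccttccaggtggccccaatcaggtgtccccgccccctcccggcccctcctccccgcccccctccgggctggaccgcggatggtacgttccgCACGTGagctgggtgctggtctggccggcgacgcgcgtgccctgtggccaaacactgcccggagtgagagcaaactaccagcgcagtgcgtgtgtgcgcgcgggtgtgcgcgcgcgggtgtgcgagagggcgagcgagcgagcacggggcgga
Tmeff2: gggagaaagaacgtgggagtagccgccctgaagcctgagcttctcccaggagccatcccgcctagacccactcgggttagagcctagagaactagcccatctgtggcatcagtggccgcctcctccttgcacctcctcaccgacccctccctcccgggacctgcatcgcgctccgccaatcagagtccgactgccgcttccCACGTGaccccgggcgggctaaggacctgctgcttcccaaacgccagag
Ciart has 3 E-boxes, which begin 116, 58 and 44 bases before its start, and Bhlhe41 and Tmeff2 have 1 each, which begin 153 and 49 bases before theirs. A CACGTG was in the windows of 4 of the 10 genes with a window among those opposite to Arntl (Per1, Ciart, Tef and Bhlhe41). It was also in 1 of the 4 windows of genes in the phase of Arntl (Cry1), and in those of 1854 of 27025 genes overall (6.86%). A match is a description of these letters and not of binding.

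Genes of cholesterol synthesis and uptake had the most negative median difference of the lists with at least 10 measured genes. Of 20 genes, 0 passed in WT and 9 fell in Ogg1-/- livers (of all genes, 0.371% and 5.87% fell), and 18 of 20 had negative responses in both genotypes, and the median response was -0.33 in WT and -0.78 in Ogg1-/- livers. For the difference, 5 genes had an unadjusted p under 0.05, all negative, where 3.38% of all genes were, and 0 passed after adjustment, with a median of -0.47. Sqle, the squalene epoxidase, ranged from 9.48 through 10.37 to 10.73 in chow-fed and from 7.05 through 9.97 to 10.92 in HFD-fed WT livers. Ogg1-/- livers ranged from 9.54 through 9.85 to 10.18 on chow and from 5.98 through 7.04 to 7.24 on the HFD for Sqle. The HFD-fed WT livers were spread over nearly the whole range, and the HFD-fed Ogg1-/- livers lay at its low end.

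The responses of Sqle were -0.84 in WT and -3.02 in Ogg1-/- livers, and the difference of -2.18 had a standard error of 0.71 and did not pass (adjusted p = 0.521 from limma). Idi1, the isopentenyl-diphosphate isomerase, had responses of -0.67 and -2.32, and its HFD-fed Ogg1-/- livers, from 7.56 through 8.79 to 9.17, lay below all other livers. Cyp51, the lanosterol demethylase, had responses of -0.55 and -1.91, and Stard4, a sterol carrier, -0.17 and -1.11. Only the responses in Ogg1-/- livers passed for these 4 genes. Liver 1 had the lowest chow-fed Ogg1-/- value for Idi1, Cyp51 and Stard4, and without it the difference of Stard4 was -1.10 (adjusted p = 0.0401) while those of Sqle, Idi1 and Cyp51 did not pass.

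Male-biased liver genes that changed all fell. Of 21 genes, 4 fell in WT and 15 in Ogg1-/- livers, 0 rose in either, and 18 had negative responses in both. Among all genes, 0.742% rose and 0.371% fell in WT, and 5.59% rose and 5.87% fell in Ogg1-/- livers. The medians were -0.65 and -0.87, with a median difference of -0.28 and 2 genes at an unadjusted p under 0.05 for it. With the suffix of the descriptions as a term the median difference was 0.06, of the opposite sign. Hsd3b5, a male-specific steroid dehydrogenase, had responses of -2.56 and -3.73 with overlapping diets in both genotypes, since the HFD-fed livers ranged from 5.59 to 12.34 in WT and from 5.52 to 10.97 in Ogg1-/- livers. Slco1a1, an organic anion transporter, had responses of -1.01 and -2.02, and Cyp7b1, the oxysterol hydroxylase, of -0.92 and -1.73, each passing in Ogg1-/- livers alone. Of 18 female-biased genes, 4 rose and 2 fell in WT and 6 rose and 2 fell in Ogg1-/- livers, and the 2 that fell in each were Cyp2b10 and Cyp3a44.

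Drug-metabolizing P450s and conjugating enzymes had medians of -0.21 and -0.23, with 3 of 62 higher and 6 lower in WT and 5 higher and 16 lower in Ogg1-/- livers. Over all genes, 0.742% were higher and 0.371% lower in WT, and 5.59% higher and 5.87% lower in Ogg1-/- livers. Cyp4a14, a PPAR-alpha target, did not pass in either genotype, with responses of -0.18 and 1.21 and an unadjusted p of 0.0197 from limma for the difference of 1.39. Its HFD-fed WT replicate 3 lay at 10.16, while the other livers of that group ran from 12.34 to 12.99. The chow-fed WT livers ran from 12.13 to 12.85, so the negative sign in WT rests on replicate 3. Bile acid genes included 1 of 23 that fell in WT and 8 that fell in Ogg1-/- livers.

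Some lipid storage genes rose in both genotypes. Of 38 genes of triglyceride synthesis and lipid droplets, 5 rose and 0 fell in WT and 14 rose and 1 fell in Ogg1-/- livers, 4 passed in both in the same direction, and the median response was 0.19 in each. The shares of all genes that rose and fell were 0.742% and 0.371% in WT and 5.59% and 5.87% in Ogg1-/- livers. The lipid droplet gene Cidec had responses of 1.66 in WT and 1.70 in Ogg1-/- livers, the latter passing, with a difference of 0.05 (standard error 0.65). Plin2, a coat protein of lipid droplets, had responses of 0.45 and -0.10 that did not pass, and an unadjusted p of 0.0316 for their difference of -0.55. Agpat2, which makes phosphatidic acid, rose by 0.59 in Ogg1-/- livers and had a response of 0.18 in WT (difference 0.41, adjusted p = 0.52, and 0.0339 without liver 1).

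Among 22 genes of lipogenesis and desaturation, 1 rose and 1 fell in WT and 4 rose and 1 fell in Ogg1-/- livers. Rises and falls over all genes made up 0.742% and 0.371% in WT and 5.59% and 5.87% in Ogg1-/- livers. Srebf1, the regulator of fatty acid synthesis, rose by 1.29 in Ogg1-/- livers and had a response of 0.56 in WT, a difference of 0.73 (standard error 0.26, unadjusted p = 0.00901, adjusted p = 0.597). Its HFD-fed Ogg1-/- livers, from 10.85 through 10.91 to 11.21, lay above all other livers. Fasn and Scd1, which make and desaturate palmitate, had differences of 0.33 and 0.23, and no response of theirs passed. The glycolytic gene Pklr rose by 0.74 and 0.82 and the mitochondrial pyruvate carrier Mpc1 by 0.39 and 0.59.

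Fatty acid oxidation genes had a median difference of -0.10. Of 29 mitochondrial oxidation and ketogenesis genes, 4 rose and 0 fell in WT and 6 rose and 4 fell in Ogg1-/- livers, with medians of 0.17 and 0.08. Among all genes, 0.742% rose and 0.371% fell in WT, and 5.59% rose and 5.87% fell in Ogg1-/- livers. Ppara, the fatty acid receptor, had responses of 0.42 and -0.12 (difference -0.54, unadjusted p = 0.00652), and Cpt1a, the carnitine transferase of fatty acid entry, 0.40 and 0.09. Eci2, an enoyl-CoA isomerase, fell by 0.58 in Ogg1-/- livers and had a response of 0.07 in WT (difference -0.66, unadjusted p = 0.00891). Of 24 TCA cycle and pyruvate genes, 10 had a positive and 14 a negative difference, with a median of -0.05. At an unadjusted p under 0.05, 2 of the 24 were negative, against 3.38% of all genes. Etfdh and Idh3a, of electron transfer and the TCA cycle, had differences of -0.51 each, with liver 1 at the low extreme of its group for both (9.18 and 7.83). These genes were picked by the study on the same livers, so their direction is not independent evidence. Most other genes that the study named in these pathways are not given here, so the genes shown do not stand for all of them. Without liver 1, Ppara, Eci2, Idh3a and Etfdh had differences of -0.66, -0.83, -0.72 and -0.81, and each passed (adjusted p = 0.0339, 0.0266, 0.0229 and 0.0385 from limma).

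Nuclear genes of oxidative phosphorylation had a median difference of 0.13. Of 67 genes, 0 passed in WT and 11 rose in Ogg1-/- livers, 59 had a positive difference and 7 an unadjusted p under 0.05, all positive. The sizes were small. Ndufs5 and Ndufb6, subunits of complex I, rose by 0.52 and 0.32 in Ogg1-/- livers and had responses of 0.24 and -0.01 in WT. Of 32 genes of the urea cycle and amino acid catabolism, 3 fell in WT and 4 rose in Ogg1-/- livers, and 7 had an unadjusted p under 0.05 for the difference, all positive. Both lists are read against all genes, of which 0.371% fell in WT and 5.59% rose in Ogg1-/- livers. A positive difference at that unadjusted p was found for 2.7% of all genes. Gpt, the alanine aminotransferase, and Bckdhb, of branched-chain keto acid breakdown, rose by 0.51 and 0.61 in Ogg1-/- livers, with differences of 0.44 and 0.40, and that of Gpt passed without liver 1 (adjusted p = 0.0395 from limma). G6pc, the catalytic unit of glucose 6-phosphatase, rose by 0.61 in Ogg1-/- livers and had a response of -0.09 in WT. Its chow-fed Ogg1-/- livers, from 11.78 to 12.74, lay below the chow-fed WT ones, from 13.15 to 13.47. On the HFD the genotypes overlapped, from 12.46 to 13.26 in Ogg1-/- and from 12.69 to 13.58 in WT livers.

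The median difference was -0.16 for the unfolded protein response and -0.19 for ATF4 targets, against 0.04 for heat shock genes and 0.05 for antioxidant and NRF2 targets. Of 28 genes of the unfolded protein response, 0 passed in WT and 4 fell in Ogg1-/- livers, with medians of 0.02 and -0.18 and 3 negative differences at an unadjusted p under 0.05. Over all genes, 5.59% rose and 5.87% fell in Ogg1-/- livers. Positive and negative differences at that p were found for 2.7% and 3.38% of all genes. The endoplasmic reticulum chaperones Dnajc3 and Pdia6 had differences of -0.79 and -0.46, which did not pass with all livers and passed without liver 1 (adjusted p = 0.0229 for each, limma). Of 21 ATF4 targets and tRNA synthetases, 0 passed in WT and 1 rose and 4 fell in Ogg1-/- livers, with 1 positive and 5 negative differences at an unadjusted p under 0.05. Asns, the asparagine synthetase, ranged from 7.22 through 7.97 to 8.39 in chow-fed and from 6.25 through 6.74 to 7.11 in HFD-fed WT livers. For Ogg1-/- livers Asns ranged from 8.31 through 8.97 to 10.50 on chow and from 6.11 through 6.31 to 7.59 on the HFD. The diets were separate in both genotypes, the HFD-fed groups overlapped, and the responses of -1.15 and -2.75 differed by -1.59 (standard error 0.49, adjusted p = 0.52 from limma). Trib3, another ATF4 target, fell by 0.59 in Ogg1-/- livers and had a response of -0.10 in WT.

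Complement and coagulation genes had negative medians in both genotypes, -0.14 and -0.26, with 1 of 38 lower in WT and 3 higher and 13 lower in Ogg1-/- livers. The counts of this and the following lists are read against all genes. Of these, 0.742% were higher and 0.371% lower in WT, and 5.59% higher and 5.87% lower in Ogg1-/- livers. C6, C8a and C8b, of the membrane attack complex, had responses of -0.85, -0.47 and -1.04 in WT, none of which passed, and fell by 1.46, 1.14 and 1.72 in Ogg1-/- livers. Interferon-induced genes had medians of 0.06 and -0.04, with 4 of 30 at an unadjusted p under 0.05 for a negative difference, against 3.38% of all genes, Usp18 among them (-0.67). Of 20 cell cycle genes, 2 rose in WT and 6 in Ogg1-/- livers, with medians of 0.25 and 0.33, and Ccnd1 (cyclin D1) rose by 0.67 and 0.93. Of 18 hepcidin and iron genes, 0 passed in WT and 3 rose in Ogg1-/- livers. Hamp2 was 1 of them and rose by 1.33 (difference 0.97, adjusted p = 0.521, and 0.0211 without liver 1).

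Markers of other liver cells were compared in the same way. Of 10 sinusoidal endothelial markers, 0 passed in WT and 5 fell in Ogg1-/- livers, with medians of -0.05 and -0.34, and Clec4g and Tek had differences of -0.43 and -0.44, of which that of Clec4g passed without liver 1 (adjusted p = 0.0229 from limma). The mean log2 level of these 10 ranged from 8.53 to 8.97 and from 8.55 to 8.85 in chow-fed and HFD-fed WT livers, and from 8.22 to 8.83 and from 8.22 to 8.45 in the Ogg1-/- livers. Kupffer cell markers included 2 of 10 that rose and stellate cell markers 2 of 21 that fell in Ogg1-/- livers, and 0 of 7 lymphocyte, 5 cholangiocyte and 4 adipocyte markers passed in either response. In Ogg1-/- livers 5.59% of all genes rose and 5.87% fell, and the counts of these small lists are read against those shares. Of 21 genes of base excision repair, the pathway of OGG1, 0 passed in WT and 3 rose in Ogg1-/- livers, and the glycosylase genes Neil1 and Nthl1 among these rose by 0.28 and 0.27, with responses of 0.09 and 0.03 in WT. The difference between the responses was 0.19 for Neil1 and 0.24 for Nthl1 and did not pass for either. The part of cell composition in these results was not tested.

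**Figure D4:**
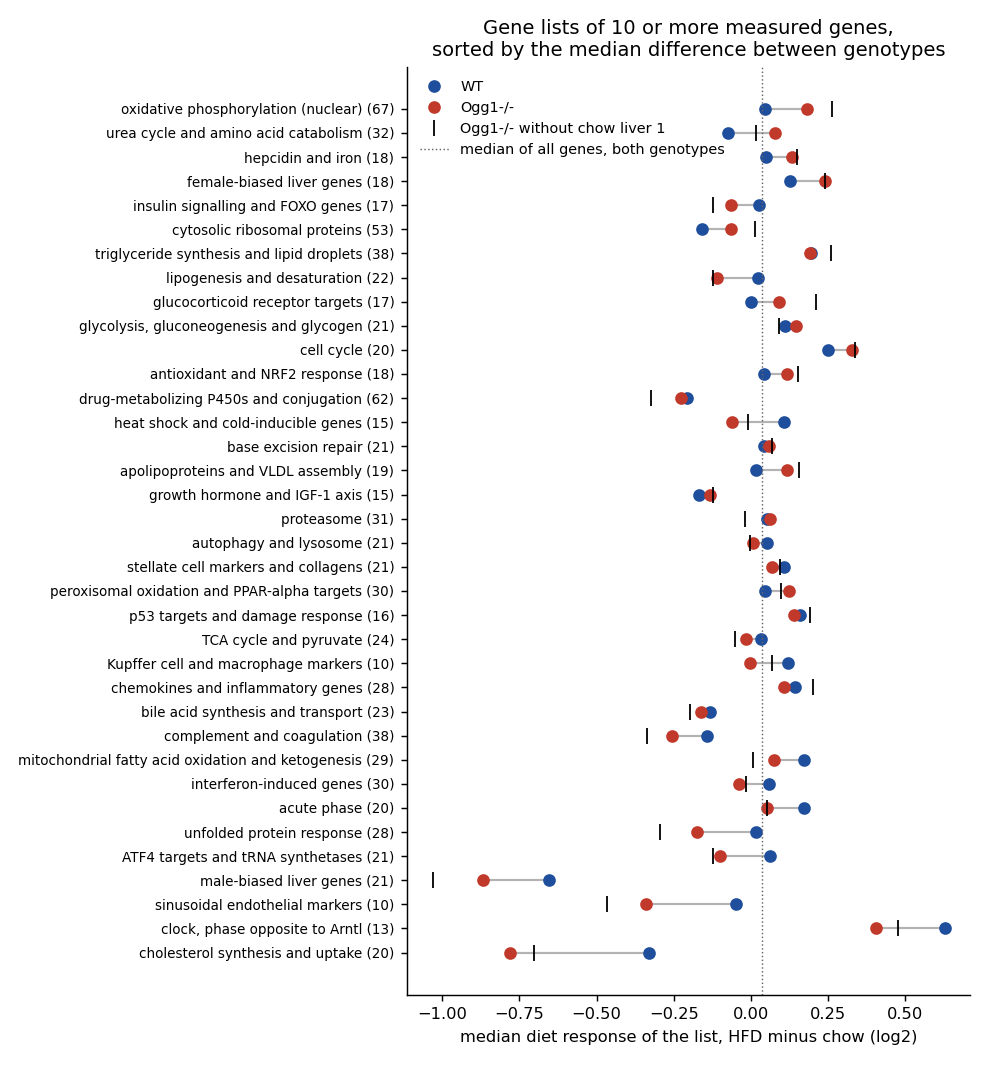
Median diet response (HFD minus chow, log2) of each gene list with at least 10 measured genes (number in brackets), in WT (blue), in Ogg1-/- (red) and in Ogg1-/- livers without liver 1 of the chow-fed group (black tick); the dotted line is the median of all genes. The cholesterol synthesis list lay at -0.33 in WT and -0.78 in Ogg1-/- livers, and the clock list opposite to Arntl at 0.63 and 0.41.

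How many genes departed depended on liver 1. Without it, 272 probe sets (0.765%) were called for the difference, 53 in the positive and 219 in the negative direction, in place of 1, and the call of Tmeff2 was shared. Leaving out any other single liver gave 1 or 2 calls. Weights for each array, with all livers kept, gave 16 calls, and Sardh, Zfp36l1, Hspe1, Gmfb, Pik3ap1, Nxpe2 and Hamp2 then passed (adjusted p = 0.0479 for each, limma). Without liver 1 and without array weights, 179 of 19938 genes (0.898%) were called for the difference, of which 138 were also called in Ogg1-/- livers, 4 in WT and 38 in neither. The negative direction held 156 (0.782%) and the positive direction 23 (0.115%) of these genes. Agreement between the responses was little altered without liver 1, with a correlation across genes of 0.70, 130 of 133 genes called in WT (0.667%) having the same sign in Ogg1-/- livers, and 1403 of 1458 genes called in Ogg1-/- livers (7.31%) having the same sign in WT.

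Without liver 1 the median difference of oxidative phosphorylation genes was 0.20, with 37 of 67 at a positive and 3 at a negative unadjusted p under 0.05, where 7.6% and 10.6% of all genes were. That of mitochondrial fatty acid oxidation was -0.23, with 12 of 29 negative and 2 positive, and that of the unfolded protein response -0.23, with 10 of 28 negative and 1 positive. These 3 medians had the same sign as with all livers, whereas those of glycolysis and gluconeogenesis (0.06 to -0.02), drug-metabolizing enzymes (0.04 to -0.02), base excision repair (0.03 to -0.03) and Kupffer cell markers (-0.05 to 0.02) changed sign, and that of chemokines and inflammatory genes moved from -0.05 to near 0. With the axis score as a covariate in place of leaving liver 1 out, 1 probe set was called for the difference, and the probe sets called in Ogg1-/- livers fell in number from 1107 to 286. Apart from liver 1, the axis score was higher in every HFD-fed than in every chow-fed Ogg1-/- liver.

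**Figure D5:**
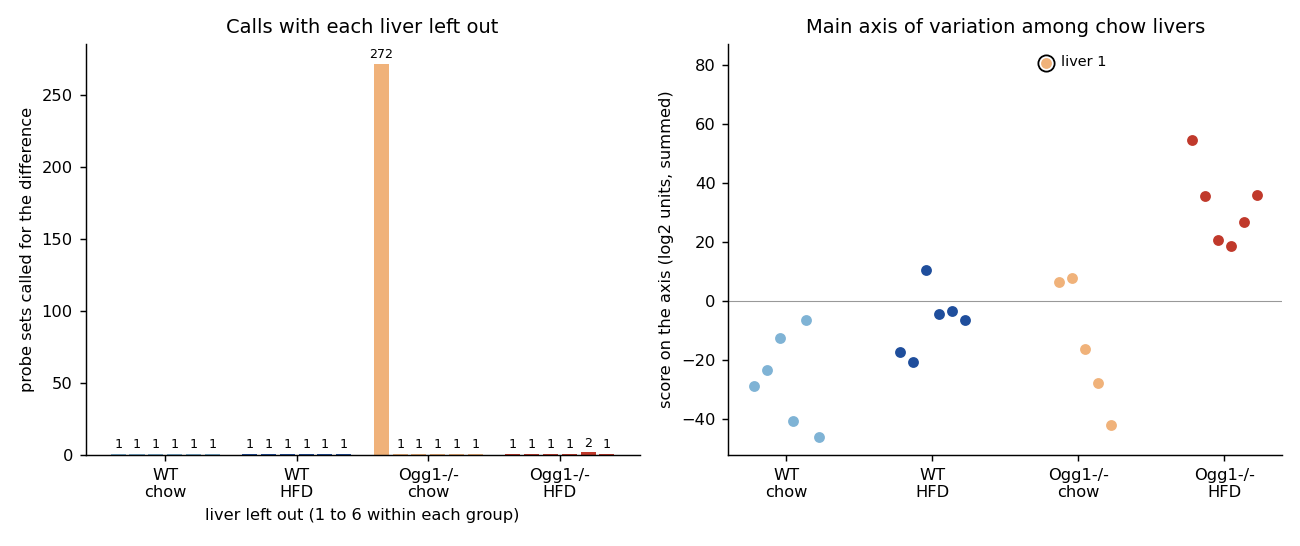
Left: number of probe sets called for the difference between the diet responses when each of the 24 livers was left out in turn, with the group of the omitted liver along the horizontal axis. Right: score of each liver on the main axis of variation among the chow-fed livers, in summed log2 units. Leaving out liver 1 of the chow-fed Ogg1-/- group gave 272 calls against 1 or 2 for any other liver. Its score of 80.9, on an axis that it helped to set, lay above all others.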

How the data were processed

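Liver RNA of 24 mice was hybridized to Affymetrix arrays, 1 array per mouse. Per the labels, the deposited values are log2 signals that the authors summarized with RMA, a method that corrects background, normalizes arrays to each other and condenses probes. They ran from 1.81 to 14.8, and their number of arrays, not a read depth, limits the precision. No source used here states the version of RMA. Of 35556 probe sets, 21789 carried 1 gene symbol, 1621 several and 12146 none here, and 21698 symbols were matched by Entrez identifier to RefSeq names. No probe set with several symbols was named.

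A means model over the 4 groups was fitted with limma 3.58.1 in R 4.3.3, and p values were adjusted by Benjamini-Hochberg over all probe sets. A probe set was called at an adjusted p under 0.05 and a fold of 1.5, and a gene passed at an adjusted p under 0.05. Each of 19938 genes was taken at its probe set with the highest mean. The 41 gene lists (1042 entries, 935 measured), the tests and the members were chosen with earlier results of these data known. Named genes were drawn from the gene passing for the difference, the 10 bright genes of smallest p in each direction, the 10 strongest shared genes in each direction, genes of opposite sign, up to 5 members per list and genes the study itself names. Alternatives were array weights, centring, quantile normalization, a filter on dim probe sets, other thresholds and priors, a t-test, the axis score, a replicate block, the description suffix (added after seeing the data) and each array left out. Equal replicate numbers were not taken to pair the samples. Over 36 pairs of same-numbered arrays the correlation of deviations ran from -0.27 to 0.43, with 10 over 0.1. Arrays of different numbers were not compared in this way, so the check cannot decide whether numbers mark pairs. The scripts were tested on simulated data. Each array came from a separate mouse.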

Additional observations from a re-analysis of the deposited data

Results flagged for a closer look

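In 31 of 360 gene and group combinations examined, 1 liver lay far from the other 5 of its group, where chance gives about 1 in 20. Liver 1 of the chow-fed Ogg1-/- group accounted for 11 of them. Its log2 values were 10.3 for C8a, 11.1 for C8b, 11.01 for Cyp4a12b, 8.97 for Cyp51, 10.1 for Cyp7b1, 8.28 for Dnajc3, 9.18 for Etfdh, 10.6 for Hamp2, 7.83 for Idh3a, 10.0 for Idi1 and 8.59 for Stard4. Replicate 2 of the same group stood apart for Apoa4 (10.6), Ciart (7.87) and Slc13a2 (5.86).

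Among HFD-fed WT livers, replicate 5, the array with the suffix fr, stood apart for Agpat2 (12.8), Bdh1 (11.6), Cyp4a12a (10.3) and Mpc1 (12.5). Replicate 2 did so for Aldh1b1 (7.22), Clec4g (11.5) and Eci2 (10.7), replicate 3 for Cyp4a14 (10.2) and replicate 6 for Adssl1 (8.57). Chow-fed WT livers stood apart for Hsd3b5 (12.1) and Mfsd2a (7.18) in replicate 1, Pik3ap1 (9.56) in replicate 3, Ogg1 (6.26) in replicate 4 and Sardh (12.2) in replicate 6. HFD-fed Ogg1-/- livers did so for Mmaa (7.52) in replicate 3, G0s2 (9.44) in replicate 4 and Nxpe2 (7.91) in replicate 5. Tmeff2 is listed because its diet responses differed between genotypes by the test of the difference itself (-1.17 on the log2 scale).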

How the results depend on the processing

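Calls for the difference between the responses, 1 in the report, numbered 16 with array weights, 0 among bright probe sets (where Tmeff2 is not tested), 2 with the description suffix as a term and from 1 to 272 with 1 liver left out, the highest without chow-fed Ogg1-/- liver 1. Calls in WT, 137 in the report, numbered 210 with array weights, 67 with the suffix, 72 by the methods' t-test, 329 without a fold threshold, 59 at 2-fold and from 85 to 187 with 1 liver left out (85, 88 and 91 without WT chow replicate 4, WT chow replicate 6 and WT HFD replicate 5). Calls in Ogg1-/- livers, 1107 in the report, numbered 2123 with array weights, 286 with the axis score, 429 with each genotype alone, 191 by the t-test, 3388 without a fold threshold, 179 at 2-fold and from 474 to 2493 with 1 liver left out (723, 474, 493 and 563 without chow replicates 4, 5 and 6 and HFD replicate 1). Probe sets called in both, 90 in the report, numbered 42 with the suffix, 33 by the t-test, 226 without a fold threshold, 36 at 2-fold and from 60 to 134 with 1 liver left out. The share of WT calls with the same sign in Ogg1-/- livers, 94.9%, was 97.9% among bright probe sets and from 93.4% to 98.8% with 1 liver left out. The causes were not tested.

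With the replicate number as a block, 120, 1112, 1 and 78 probe sets were called in WT, in Ogg1-/- livers, for the difference and in both. The samples share only a number, and no pairing was assumed. The difference of Cyp2b13 was -0.17 with the suffix as a term, reversed from 2.33. Of the recomputed gene differences 523 kept direction and side of the threshold, 37 newly passed and 1, that of Tmeff2 with the suffix, no longer passed. Of the recomputed gene responses 374 held and 16 no longer passed. Of the recomputed list medians 314 held and 14 moved, nearly all of these with the suffix.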
